A study of Rattus norvegicus with 12 samples.

Results

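The difference between 2 and 4 weeks in the effect of adding MFN to a GelMA implant was examined in rat tissue by RNA sequencing. For each gene the effect of the material at a week was the mean of MFN+GelMA minus the mean of GelMA on the log2(FPKM + 1) scale, and the interaction was the 4-week effect minus the 2-week effect. FPKM counts fragments scaled for transcript length and for the size of the library. Genes were taken where at least 3 of the 12 libraries reached 1 FPKM, which gave 12270 of the 21797 genes of the deposited table. A positive interaction means that the effect moved upwards from 2 to 4 weeks, and a negative one that it moved downwards.

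The rats were kept in a specific-pathogen-free room, and the labels name the tissue as subcutaneous tissue or muscle. Controls received GelMA (gelatin methacryloyl, a gelatin hydrogel cured with light) and the others MFN+GelMA, a name the labels do not spell out, while the title of the series mentions a microfiber. With tissue taken at 2 weeks (2W) and 4 weeks (4W), there were 3 libraries for each material and week, written as GelMA 2W, GelMA 4W, MFN+GelMA 2W and so on. All 4 groups carried the hydrogel, so no group shows tissue without an implant. Strain, sex, age and the number of animals were not stated in the labels, nor whether replicates came from different animals. The p-values therefore rest on the scatter among these libraries, part of which may be technical.

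An implant calls up a foreign body response. Macrophages arrive, digest or wall off the material and can fuse into giant cells that resemble bone-resorbing osteoclasts, while fibroblasts lay down and remodel matrix and new vessels grow in. A material that acts on this course at 1 stage only, or in opposite ways at 2 stages, leaves a different mark on the RNA at each week. In bulk tissue, fewer cells of a type and less RNA per cell cannot be told apart, which holds for every gene group described here.

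Several libraries stood apart before any comparison. The deposited count-like totals ran from 11174499 to 13025655 per library, and mitochondrial genes took 17.8% to 32.7% of summed FPKM. Acta1, skeletal muscle actin, reached 275 FPKM in MFN+GelMA 2W replicate 2 and at most 0.662 FPKM in the other 11 libraries. Muscle was therefore present by its defining marker in 1 library. Adipoq, the adiponectin gene of fat cells, reached 2118 FPKM in GelMA 4W replicate 2 beside at most 154 FPKM elsewhere. Cdh5, a cadherin of endothelial junctions, stood at 27.4 FPKM in GelMA 2W replicate 3 against 90.5 FPKM or more in the other 5 libraries of that week. Krt5, a keratin of basal skin cells, was 0 in every library.

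The material effect differed between the weeks for 1727 genes (14.1% of those tested; limma, Benjamini-Hochberg adjusted p under 0.05). The interaction was higher for 1116 genes (9.1%) and lower for 611 (4.98%), a split of 64.6% to the higher side. When mitochondrial genes were removed before rescaling, 50.8% of the called genes were on the higher side, and 52.6% when the count-like signal scaled to library totals was used, so the split depends on the scaling. Taken singly, 61 genes passed at 2 weeks (0.497%; 21 higher, 0.171%, and 40 lower, 0.326%) and 3013 at 4 weeks (24.6%; 1876 higher, 15.3%, and 1137 lower, 9.27%). Of the 4-week genes, 867 of the 1876 higher and 637 of the 1137 lower did not pass in the interaction. For these no difference between the weeks was shown. The materials did not overlap for 18.2% of genes at 2 weeks, 45.6% at 4 weeks and 9.67% at both. The standard deviation of the effect over all genes was 0.401 at 2 weeks and 0.678 at 4 weeks. Across the 12270 genes, which are not independent replicates, the effects of the 2 weeks had a Pearson correlation of 0.22 and a Spearman correlation of 0.05, from libraries that the weeks do not share.

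The called genes were sorted by the size of the effect at each week, with 0.5 on the log2 scale as the limit. Late genes, with an effect past 0.5 at 4 weeks only, were the most numerous at 1137 of 12270, or 9.27% (781 higher and 356 lower). Reversed genes, past 0.5 in opposite directions, numbered 191, or 1.56% (82 higher and 109 lower). Early genes, past 0.5 at 2 weeks only, numbered 74, or 0.603% (38 higher and 36 lower). Another 88 genes (0.717%) had effects past 0.5 in the same direction at both weeks, and in 86 of them the 4-week effect was the larger. The remaining 237 had no effect past 0.5 at either week. The sorting describes sizes, and a week's effect below 0.5 was not shown to be absent.

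**Figure D1:**
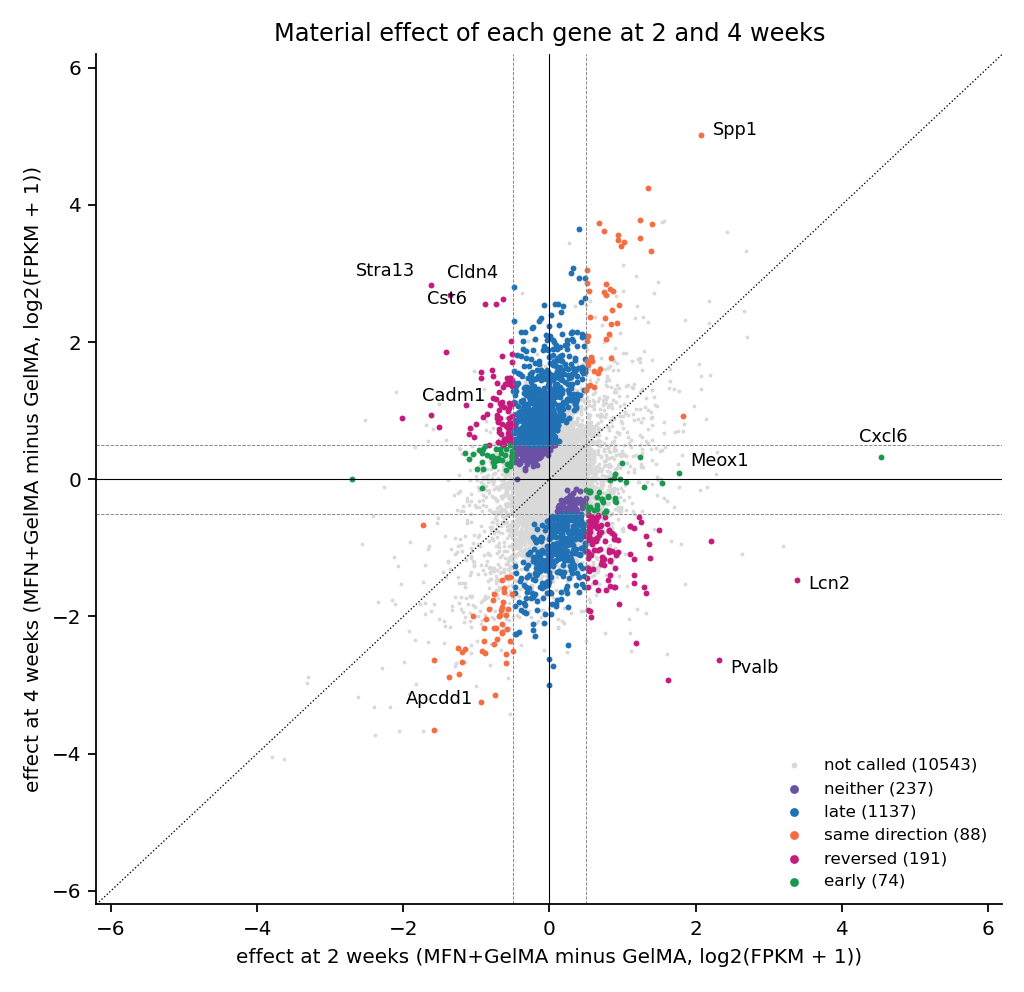
Each point is 1 of 12270 genes, with its material effect at 2 weeks on the x axis and at 4 weeks on the y axis, both as MFN+GelMA minus GelMA on the log2(FPKM + 1) scale; colours give the classes with their number of genes, dashed lines mark 0.5 and the dotted line marks equal effects. The 1137 late genes form a tall column around 0 on the x axis, the 191 reversed genes fill the upper left and lower right, and the 74 early genes lie along 0 on the y axis.

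Sharp borders cut through a continuum here. Of the reversed genes, 80 had their smaller effect between 0.5 and 0.6. Conversely 795 of the 1137 late genes had effects of opposite sign at the 2 weeks, a share that choosing genes by the interaction favours. In 89 late genes and 14 early genes of opposite sign the smaller effect lay between 0.4 and 0.5. At the filter, 261 genes reached 1 FPKM in exactly 3 libraries and 289 genes in exactly 2 and were left out. Of the genes tested, 63 passed through the 3 libraries of a single group, 44 of them through MFN+GelMA 4W, and such genes had to differ: 34 of the 63 were called.

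Leaving out 1 library at a time changed how many genes passed. The count ran from 920 without GelMA 4W replicate 1 to 1607, with 1073 when MFN+GelMA 4W replicate 1 was left out and 1088 when its replicate 3 was. Of the 1727 genes 837 passed in the same direction in all 12 such fits, and 1023 passed without the 3 libraries that stood apart. Among the classes, 99 of 191 reversed, 612 of 1137 late, 27 of 74 early and 46 of 88 same-direction genes passed in all 12. Without those 3 libraries Stra13, Pxt1, A2m, Cav1, Spp1, Cd4, Cd40, Idi1, Abcc9, Canx, Sdf2l1, Acan and Bmp7 no longer passed, with adjusted p from 0.0507 to 0.15. Without them the interaction of Gpihbp1 was -1.67 (adjusted p = 0.0461) and that of Art3 -1.80 (adjusted p = 0.0104). Genes chosen by the naming rule passed in all 12 unless their number is given or they are said not to pass. Gpnmb, Cd68, Trem2, Itgax, Kdr, Ddit4, Pi16, Sema3c, Adamts4, Serpine2, Cadm3, Cadm4 and Erbb3 lie outside that rule and were chosen after their values were seen. Reads of overlapping genes may be mixed for Fcgr3a, Cfb, Art3, Tnfsf13b, Cd5l, Dnm3, Foxp3, Npc1, Idi1, Kif20a, Nos3, Angpt2, Slc30a1, Itgax and Irf7, which carry the same locus as another row. Other genes may overlap in part, which was not looked for.

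Promoter windows of 1 reversed gene of each direction are shown first. Windows of 300 bases (250 before and 50 after the annotated start; RefSeq, GRCr8) could be matched by symbol for 9102 of the tested genes. They were searched on both strands for TGANTCA, the core site of the AP-1 factors, and GAGGAA, a core site of ETS factors such as PU.1 of myeloid cells. A window of each direction is printed because it holds matches, and it was chosen after the search; those of Faim and Mme held none. Capitals mark the matches. Mcoln3 (GRCr8 chr2:237668756-237669055, plus strand) carried both motifs, and Lcn2 (GRCr8 chr3:36081731-36082030, minus strand) carried the second only.
Mcoln3: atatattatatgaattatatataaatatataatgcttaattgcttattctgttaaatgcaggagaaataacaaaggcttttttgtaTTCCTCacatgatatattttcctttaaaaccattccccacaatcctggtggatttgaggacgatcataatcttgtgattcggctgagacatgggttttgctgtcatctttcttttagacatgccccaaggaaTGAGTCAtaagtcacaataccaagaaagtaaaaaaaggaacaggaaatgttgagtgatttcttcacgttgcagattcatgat
Lcn2: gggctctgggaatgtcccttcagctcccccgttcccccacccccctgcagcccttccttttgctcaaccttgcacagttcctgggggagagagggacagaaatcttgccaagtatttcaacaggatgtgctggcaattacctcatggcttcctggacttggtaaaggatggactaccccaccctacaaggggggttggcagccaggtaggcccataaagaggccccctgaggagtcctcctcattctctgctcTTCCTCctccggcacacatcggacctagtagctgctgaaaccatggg
In Mcoln3 the AP-1 match began at position -32 and the ETS match at position -164 from the start, and in Lcn2 the ETS match began at position 4. Among reversed genes with a higher interaction 24 of 55 windows held GAGGAA (43.6%), against 16 of 75 windows of those with a lower one (21.3%) and 27% of all tested windows. Late genes had about equal shares in the 2 directions, 191 of 582 (32.8%) higher and 86 of 265 (32.5%) lower. TGANTCA was in 6 of 55 (10.9%), 5 of 75 (6.67%) and 5.12% respectively. No window held overlapping matches of both. Among all 27457 windows of that length GAGGAA was in 27.5% and TGANTCA in 7.33%. A match of letters is not a bound site, and these shares carry no test.

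Only 3 genes passed at both weeks with opposite signs, and they are the reversals that rest on 2 separate tests. Cadm1, a nectin-like adhesion molecule of the cell surface (ENSRNOG00000018778; rn6 chromosome 8, 52127398 to 52189722), stood at 4.82, 5.06 and 5.58 FPKM in GelMA 2W and at 0.587, 1.63 and 0.914 FPKM in MFN+GelMA 2W. At 4 weeks Cadm1 stood at 4.07, 6.78 and 7.1 FPKM in GelMA 4W and at 12.2, 10.9 and 13.4 FPKM in MFN+GelMA 4W. The groups did not overlap at either week: MFN+GelMA lay below GelMA at 2 weeks and above it at 4 weeks, and all 6 GelMA libraries lay between 4.07 and 7.1 FPKM. Its effect was -1.62 at 2 weeks (adjusted p = 0.00718) and 0.94 at 4 weeks (adjusted p = 0.00812), an interaction of 2.56 (SE 0.30, adjusted p = 0.00243).

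Aard, a gene of low level named here after its values were seen, stood at 3.65, 2.27 and 3.72 FPKM in GelMA 2W and at 0, 0 and 0.0725 FPKM in MFN+GelMA 2W. At 4 weeks Aard stood at 0.423, 0.862 and 1.63 FPKM in GelMA 4W and at 3.37, 1.87 and 2.57 FPKM in MFN+GelMA 4W. Both weeks were free of overlap, in opposite order, with effects of -2.02 (adjusted p = 0.00661) and 0.90 (adjusted p = 0.0236). Glt8d2, a glycosyltransferase-domain gene, went the other way: it stood at 10.8, 12.1 and 10.4 FPKM in GelMA 2W and at 20.5, 18.2 and 19.5 FPKM in MFN+GelMA 2W. At 4 weeks Glt8d2 stood at 14.1, 10.3 and 12.5 FPKM in GelMA 4W and at 7.58, 9.18 and 8.53 FPKM in MFN+GelMA 4W. Its effects were 0.75 (adjusted p = 0.0293) and -0.49 (adjusted p = 0.0168), the latter just under the limit of 0.5, which puts it among the early genes.

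The 82 reversed genes with a higher interaction had a median effect of -0.64 at 2 weeks and 0.94 at 4 weeks. Over time their median change was -0.53 in GelMA and 1.15 in MFN+GelMA, medians that the choice of the class largely fixes. Of these genes 67 passed at 4 weeks on their own and 2 at 2 weeks. The groups did not overlap at both weeks for 61 of the 82, beside 9.67% of all tested genes, a share fixed in part by how the class was chosen.

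Cst6 encodes cystatin E/M, an inhibitor of lysosomal cysteine proteases (rn6 chromosome 1, 220727291 to 220729000). It stood at 3.2, 7.31 and 1.21 FPKM in GelMA 2W and at 1.86, 0.744 and 1.45 FPKM in MFN+GelMA 2W. At 4 weeks Cst6 stood at 7.52, 6.82 and 10.5 FPKM in GelMA 4W and at 51.7, 35.3 and 81.1 FPKM in MFN+GelMA 4W. The materials overlapped at 2 weeks, and at 4 weeks every MFN+GelMA library lay above every other library of the study. The interaction was 3.45 (SE 0.61, adjusted p = 0.00675), while its 2-week effect of -0.89 did not pass alone (adjusted p = 0.379).

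Faim, an inhibitor of Fas-induced cell death (rn6 chromosome 8, 106816151 to 106827580), stood at 1.82, 7.21 and 5.35 FPKM in GelMA 2W and at 1.71, 0.572 and 0.798 FPKM in MFN+GelMA 2W. At 4 weeks Faim stood at 1.87, 1.38 and 2.57 FPKM in GelMA 4W and at 4.55, 15.2 and 11.8 FPKM in MFN+GelMA 4W. The 2 materials were apart at both weeks, with the order turned over (-1.42 and 1.86; interaction 3.28, SE 0.63, adjusted p = 0.00872). Mcoln3, a cation channel of endosomes and lysosomes (rn6 chromosome 2, 251983338 to 252007560), stood at 8.12, 8.27 and 21.9 FPKM in GelMA 2W and at 7.46, 6.95 and 3.15 FPKM in MFN+GelMA 2W. At 4 weeks Mcoln3 stood at 10.2, 7.41 and 18.5 FPKM in GelMA 4W and at 41.4, 33.2 and 31.7 FPKM in MFN+GelMA 4W, again without overlap at either week (interaction 2.50, SE 0.57, adjusted p = 0.0166). Serpinb8, an intracellular serine protease inhibitor, had an interaction of 2.54 (SE 0.42, adjusted p = 0.0054), most of it from 4 weeks: 31.2, 26.97 and 30.3 FPKM in MFN+GelMA 4W against 5.6, 4.54 and 10.7 FPKM in GelMA 4W.

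Other reversed genes in this direction include genes of myeloid cells. Gpnmb, a glycoprotein of phagocytes rich in lysosomes, stood at 4622, 4524 and 6329.6 FPKM in GelMA 2W and at 3569.8, 3244 and 2709.9 FPKM in MFN+GelMA 2W. At 4 weeks Gpnmb stood at 3031, 2457 and 5242 FPKM in GelMA 4W and at 7658, 6130.3 and 6702 FPKM in MFN+GelMA 4W. It was lower with MFN in every library at 2 weeks and higher in every library at 4 weeks (interaction 1.70, SE 0.36, adjusted p = 0.0123). Cd200r1, an inhibitory receptor of myeloid cells, had effects of -0.68 and 0.69 (interaction adjusted p = 0.00912). Cd4, which rat macrophages carry as well as helper T cells, had effects of -0.64 and 0.50 and passed in 9 of 12 fits (adjusted p = 0.0226; 0.0612 when GelMA 4W replicate 1 was left out).

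The 3 other leading genes of this direction were less stable. Stra13 had the largest interaction at 4.45 (adjusted p = 0.0405), but was listed at 0 in 6 of 12 libraries and passed in 3 of 12 fits (up to 0.0857 without MFN+GelMA 4W replicate 2). Fcgr3a, a low-affinity receptor for IgG whose locus is shared with another row of the table, had 3.30 (adjusted p = 0.0496) and passed in 2 of 12 (up to 0.115 without GelMA 4W replicate 1). Pxt1 had 3.27 (adjusted p = 0.0327) and passed in 5 of 12 (up to 0.0781 without GelMA 4W replicate 1).

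The 109 reversed genes with a lower interaction were higher with MFN at 2 weeks (median 0.69) and lower at 4 weeks (median -0.91). Here the median change over time was 0.57 in GelMA and -1.10 in MFN+GelMA. None of the 109 passed at 2 weeks alone and 69 passed at 4 weeks. For these genes the rise at 2 weeks was not called by itself.

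Lcn2, the siderophore-binding lipocalin of neutrophils and inflamed epithelium (ENSRNOG00000013973; rn6 chromosome 3, 11414185 to 11417546), was apart at both weeks. It stood at 20.8, 18.7 and 4.01 FPKM in GelMA 2W and at 88.6, 66.4 and 412 FPKM in MFN+GelMA 2W. At 4 weeks Lcn2 stood at 17.6, 16.3 and 11.2 FPKM in GelMA 4W and at 2.52, 5.71 and 6.79 FPKM in MFN+GelMA 4W. All MFN+GelMA libraries were above all GelMA libraries at 2 weeks and all were below them at 4 weeks, although neither week passed alone (effects 3.39 and -1.47, adjusted p = 0.0586 and 0.138). Its interaction was -4.87 (SE 0.96, adjusted p = 0.00938).

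Mme, the membrane peptidase neprilysin (rn6 chromosome 2, 153803348 to 153880738), stood at 6.58, 7.9 and 5.52 FPKM in GelMA 2W and at 26.01, 7.83 and 26.03 FPKM in MFN+GelMA 2W. At 4 weeks Mme stood at 10.8, 21.1 and 9.47 FPKM in GelMA 4W and at 4.03, 3.7 and 3.34 FPKM in MFN+GelMA 4W. The 2-week groups overlapped through MFN+GelMA replicate 2, and the 4-week groups did not (interaction -2.87, SE 0.56, adjusted p = 0.00917). Cfb, complement factor B of the alternative pathway, had an interaction of -3.12 (adjusted p = 0.0395) that held in 2 of 12 fits (up to 0.0962 without MFN+GelMA 4W replicate 1). Pvalb, a calcium buffer of fast muscle fibres, had -4.96 (adjusted p = 0.0211) and 46.7 FPKM in the library with muscle actin. Without the 3 libraries that stood apart its adjusted p was 0.00888, and it passed in 10 of 12 fits.

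**Figure D2:**
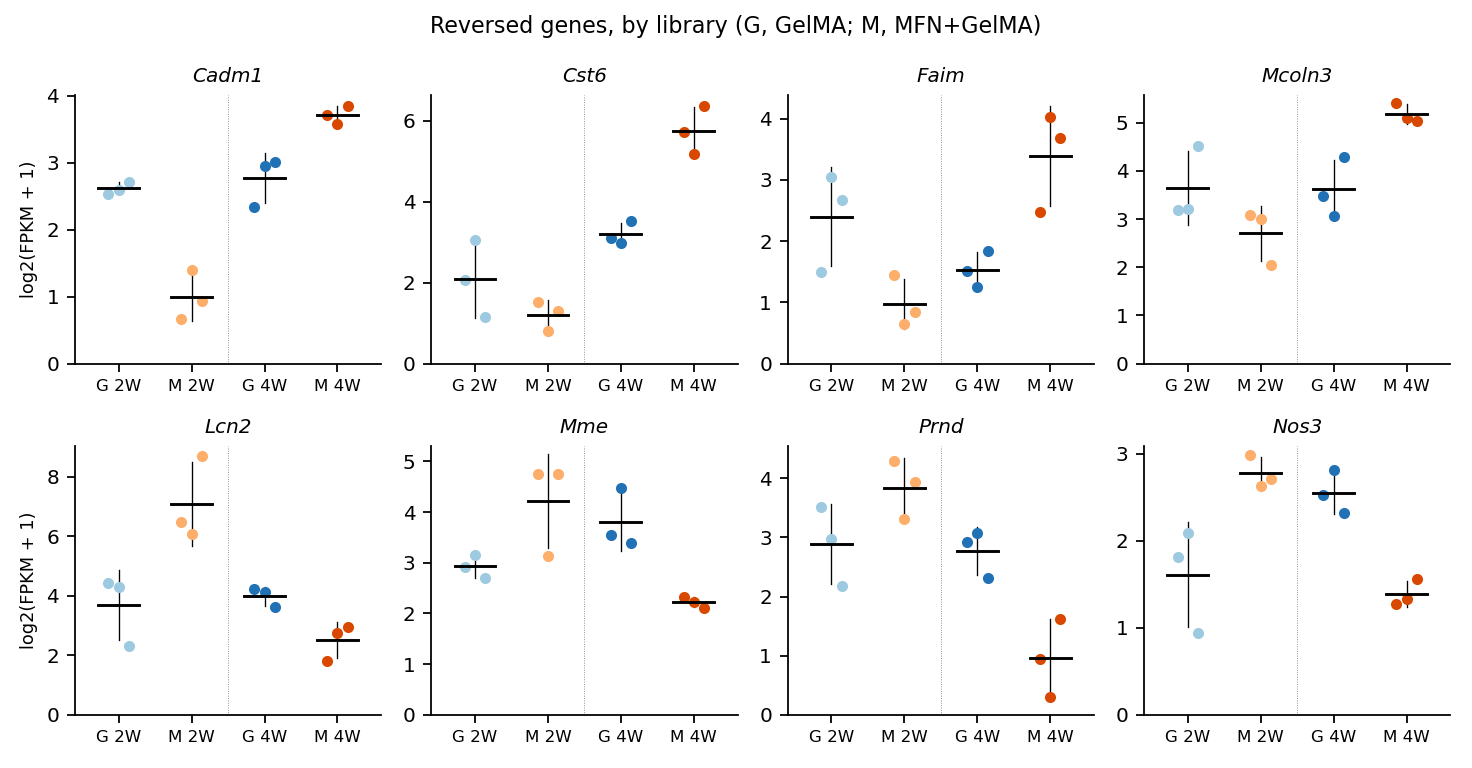
Level of 8 reversed genes in each library on the log2(FPKM + 1) scale (points), with the group mean (bar) and its SD (line, n = 3), for GelMA (G) and MFN+GelMA (M) at 2 and 4 weeks. The top row turns from lower to higher with MFN and the bottom row from higher to lower. For Cst6, Mme and Prnd the groups overlap at 2 weeks.

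Some vessel genes were among those that turned from higher to lower, though no member of the endothelial or smooth muscle and pericyte list passed at 2 weeks alone. Of 23 tested endothelial genes 4 fell in the interaction (Kdr, Nos3, Esam and Angpt2) and none rose, with a median of -1.74 beside 0.05 for all tested genes. This count and those of the other lists stand beside 9.1% of all tested genes that rose in the interaction and 4.98% that fell. The median effect of the list was 0.61 at 2 weeks and -1.05 at 4 weeks. Of 19 smooth muscle and pericyte genes 5 fell (Abcc9, Kcnj8, Notch3, Mcam and Cnn1) and none rose, with a median of -1.53. The summed FPKM of the 25 endothelial genes of the table ran from 217 to 679 in GelMA 2W, 623 to 727 in MFN+GelMA 2W, 513 to 715 in GelMA 4W and 257 to 364 in MFN+GelMA 4W.

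GelMA 2W replicate 3 moved with this result, since it had the lowest vessel signal of its week. Without it the endothelial median was -1.06 with 9 of the list falling, and the smooth muscle and pericyte median -1.04 with 7 falling. Those interaction medians are close to the 4-week median effects of all libraries, -1.05 and -0.93. The 2-week median effects above 0, at 0.61 and 0.54, therefore rest largely on that library. Without all 3 libraries that stood apart the medians were -0.85 and -0.77, with 7 and 5 members falling. With 1 library left out, from 2 endothelial genes (without MFN+GelMA 2W replicate 1) to 11 (without GelMA 2W replicate 2) fell. For the smooth muscle and pericyte list the number ran from 1 (without MFN+GelMA 4W replicate 1) to 7 (without GelMA 2W replicate 2). Under the scalings tried, 8 to 9 endothelial genes and 5 to 8 smooth muscle and pericyte genes fell.

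Nos3, the nitric oxide synthase of endothelium (rn6 chromosome 4, 7314368 to 7342410, a locus shared with another row), stood at 2.51, 3.25 and 0.913 FPKM in GelMA 2W and at 6.92, 5.19 and 5.52 FPKM in MFN+GelMA 2W. At 4 weeks Nos3 stood at 4.74, 6.06 and 4.004 FPKM in GelMA 4W and at 1.43, 1.52 and 1.94 FPKM in MFN+GelMA 4W. MFN+GelMA was above GelMA in every library at 2 weeks and below in every library at 4 weeks (interaction -2.33, SE 0.37, adjusted p = 0.00516, and 0.00857 without the 3 libraries). Angpt2, a Tie2 ligand that loosens vessels, stood at 24.2, 17.1 and 6.52 FPKM in GelMA 2W and at 20.4, 24.8 and 23.5 FPKM in MFN+GelMA 2W. At 4 weeks Angpt2 stood at 30.1, 18.9 and 20.2 FPKM in GelMA 4W and at 5.66, 7.31 and 7.17 FPKM in MFN+GelMA 4W, where MFN+GelMA lay lowest; at 2 weeks the groups overlapped (interaction -2.28, SE 0.50, adjusted p = 0.0134).

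Prnd, which encodes the prion-like protein doppel, stood at 6.57, 7.42 and 3.96 FPKM in GelMA 4W and at 0.92, 0.23 and 2.07 FPKM in MFN+GelMA 4W and had an interaction of -2.77 (adjusted p = 0.0111). Gpihbp1, which holds lipoprotein lipase on capillaries, had -2.67 (adjusted p = 0.0301) and passed in 5 of 12 fits (up to 0.0768 without MFN+GelMA 4W replicate 1). The adhesion receptor genes Adgrv1 and Adgrg1 had -2.57 and -2.55 (adjusted p = 0.00822 and 0.0223), the second in 10 of 12 fits (up to 0.0588 without MFN+GelMA 4W replicate 1). Kdr, which binds the growth factor VEGF-A, was a late gene, with effects of 0.44 and -1.30 and an interaction of -1.74 (adjusted p = 0.0405). Without MFN+GelMA 2W replicate 1 the 2 endothelial genes that fell were Nos3 and Angpt2, so Kdr did not pass in that fit. Cdh5 itself had -1.66 (adjusted p = 0.132) and did not pass. By the deposited annotation 5 of 84 annotated genes of this class (5.95%) belong to angiogenesis, beside none of the 58 in the other direction and 0.831% of all annotated genes, a term picked after the values were seen.

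**Figure D3:**
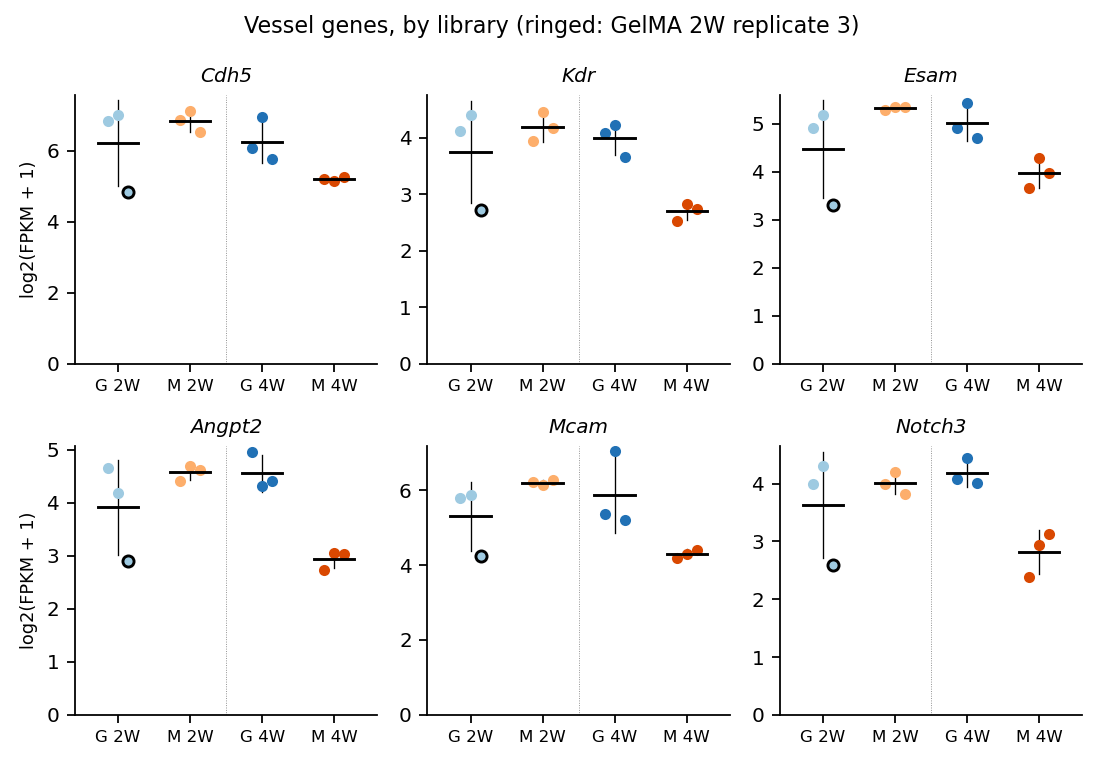
Level of 6 vessel genes in each library on the log2(FPKM + 1) scale (points), with the group mean (bar) and its SD (line, n = 3); the ringed point is GelMA 2W replicate 3. That library is the lowest of its week for all 6 genes, and for each gene MFN+GelMA 4W has the lowest mean of the 4 groups.

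Of the 5 smooth muscle and pericyte genes Abcc9, Kcnj8 and Notch3 were late and Mcam and Cnn1 reversed. Kcnj8 and Abcc9 encode the 2 parts of a pericyte potassium channel. Kcnj8 stood at 22.2, 19.9 and 16.9 FPKM in GelMA 4W and at 4.46, 5.95 and 7.08 FPKM in MFN+GelMA 4W, with overlapping groups at 2 weeks (effect 0.23; interaction -1.84, SE 0.34, adjusted p = 0.00773). Abcc9 had -1.50 (adjusted p = 0.0206), in 10 of 12 fits, up to 0.0563 without GelMA 4W replicate 1.

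Late genes with a higher interaction were led by Cldn4, a tight junction claudin (ENSRNOG00000001476; rn6 chromosome 12, 24761209 to 24763005). It stood at 1.73, 2.19 and 0.996 FPKM in GelMA 2W and at 1.89, 0.486 and 0.472 FPKM in MFN+GelMA 2W. At 4 weeks Cldn4 stood at 0.551, 0.863 and 1.48 FPKM in GelMA 4W and at 12.4, 9.83 and 15.8 FPKM in MFN+GelMA 4W. The highest value outside MFN+GelMA 4W was 2.19 FPKM, and the interaction was 3.29 (SE 0.43, adjusted p = 0.00291). Cst6 and Cldn4 were the 2 called members of the keratinocyte and hair follicle list, of which 4 of 20 genes were tested while Krt5 was at 0.

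Slamf6, a SLAM family receptor of leukocytes, stood at 32.9, 21.6 and 15.4 FPKM in GelMA 2W and at 37.1, 22.4 and 26.4 FPKM in MFN+GelMA 2W. At 4 weeks Slamf6 stood at 19.3, 13.1 and 36.9 FPKM in GelMA 4W and at 211, 161 and 189 FPKM in MFN+GelMA 4W, about the same in GelMA at both weeks and higher in every MFN+GelMA 4W library (interaction 2.76, SE 0.49, adjusted p = 0.00683). Sh2d1b, which in mouse and human encodes an adaptor of that receptor family, had 2.61 (adjusted p = 0.013). Tmem26 had 2.80 and the betaine and GABA transporter gene Slc6a12 2.71 (adjusted p = 0.00323 and 0.0065). A2m, the broad protease inhibitor alpha-2-macroglobulin, had 3.24 (adjusted p = 0.0195), with 28.3, 4.37 and 25.2 FPKM in MFN+GelMA 4W and under 1 FPKM in the other 9 libraries. It reached 1 FPKM in that group alone, so it had to differ, and was not tested when one of its 3 libraries was left out. It passed in 8 of 12 fits, with 0.0524 without GelMA 4W replicate 1.

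Pan-macrophage genes were mostly late genes with a higher interaction. Of 20 tested pan-macrophage and leukocyte genes 12 rose in the interaction and none fell, with a median of 1.09, a 2-week median effect of -0.08 and a 4-week median effect of 0.996; 11 of the 12 were late genes. Between 11 and 14 rose when 1 library was left out. Lcp1, the actin bundler of leukocytes, stood at 190.2, 176 and 171 FPKM in GelMA 2W and at 159, 157 and 182 FPKM in MFN+GelMA 2W. At 4 weeks Lcp1 stood at 114, 112 and 163 FPKM in GelMA 4W and at 381, 403 and 366 FPKM in MFN+GelMA 4W (interaction 1.69, SE 0.19, adjusted p = 0.00233). Ctss, the antigen-processing protease cathepsin S, had effects of -0.13 and 1.02, and Cd68, a lysosomal glycoprotein, -0.47 and 0.86. Both materials moved over time: Ctss went from 209, 233 and 229.6 to 119, 121 and 150.00 FPKM in GelMA and from 200.4, 204 and 209 to 278, 231 and 285 FPKM in MFN+GelMA.

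The lipid-associated macrophage list had 9 of 18 genes higher and none lower (median 1.51). Lipa, the acid lipase of lysosomes, stood at 86.1, 109.8 and 92.1 FPKM in GelMA 2W and at 114, 88.1 and 87.6 FPKM in MFN+GelMA 2W. At 4 weeks Lipa stood at 107, 76.8 and 168 FPKM in GelMA 4W and at 519, 390.2 and 543 FPKM in MFN+GelMA 4W; it showed no difference beyond the spread at 2 weeks (0.00, SE 0.24) and an interaction of 2.09 (SE 0.34, adjusted p = 0.0054). Plin2, which coats lipid droplets, had 1.98 (adjusted p = 0.00598), Trem2, a lipid-sensing receptor, 1.78, and the integrin gene Itgax 2.46 (adjusted p = 0.0198 and 0.00715).

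In the osteoclast and giant cell list 9 of 17 genes rose and none fell (median 1.18), from 5 (without GelMA 4W replicate 1) to 12 with 1 library left out and 4 without the 3 that stood apart. Ocstamp, a membrane protein needed for fusion of osteoclasts in mice (rn6 chromosome 3, 162075339 to 162080192), stood at 0.492, 1.0 and 0.499 FPKM in GelMA 2W and at 1.1, 3.02 and 2.69 FPKM in MFN+GelMA 2W. At 4 weeks Ocstamp stood at 0.138, 0.189 and 1.04 FPKM in GelMA 4W and at 17.3, 18.3 and 9.96 FPKM in MFN+GelMA 4W. It was higher with MFN in every library of both weeks, and the gap was larger at 4 weeks (effects 0.93 and 3.48; interaction 2.55, SE 0.45, adjusted p = 0.00685). Spp1, the secreted phosphoprotein osteopontin, had a 4-week effect of 5.02 after 2.08 at 2 weeks. Its interaction of 2.94 (adjusted p = 0.0418) passed in 3 of 12 fits, up to 0.0943 without GelMA 4W replicate 1.

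Lysosome and glycolysis genes were also mostly higher among those called. Of 30 genes of lysosomal hydrolases and the vacuolar proton pump 16 rose and 1, the cathepsin gene Ctsh, fell (median 0.76), with 11 to 17 rising when 1 library was left out and 10 without the 3 that stood apart. Atp6v1d, a pump subunit, stood at 118, 108 and 105 FPKM in GelMA 2W and at 103, 101 and 101 FPKM in MFN+GelMA 2W. At 4 weeks Atp6v1d stood at 101, 85.4 and 115 FPKM in GelMA 4W and at 229.7, 201 and 203 FPKM in MFN+GelMA 4W; its interaction was 1.18 (SE 0.16, adjusted p = 0.00309), and that of the cholesterol exporter gene Npc1 1.16 (adjusted p = 0.00434). By the deposited annotation 38 of 710 annotated late genes with a higher interaction (5.35%) belong to the lysosome, beside 1.78% of all annotated genes, and 26 of 353 (7.37%) to Fc gamma receptor phagocytosis, beside 1.84%; among late genes with a lower interaction the shares were 1.91% and 3.91%. Both terms were picked after the values were seen. In the glycolysis and hypoxia list 13 of 34 genes rose and 1, the stress gene Ddit4, fell (median 0.72), with 7 (without MFN+GelMA 2W replicate 1) to 15 rising when 1 library was left out. Pfkp had effects of 0.25 and 1.40 and Eno1 of 0.52 and 1.66, both glycolytic enzymes (interaction adjusted p = 0.00912 and 0.00931). Ddit4 was already higher at 2 weeks, at 1.83, and less so at 4 weeks, at 0.92.

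Egr2, a transcription factor induced by stimulation, was a late gene. Egr2 stood at 11.3, 11.2 and 8.49 FPKM in GelMA 2W and at 8.55, 6.79 and 8.1 FPKM in MFN+GelMA 2W. At 4 weeks Egr2 stood at 4.9, 7.64 and 8.76 FPKM in GelMA 4W and at 30.2, 31.6 and 31.7 FPKM in MFN+GelMA 4W (interaction 2.37, SE 0.25, adjusted p = 0.00207). Atf3, a stress-induced factor, had 2.26 (adjusted p = 0.00243). Both belong to the immediate early and heat shock list, in which 4 of 30 genes rose and 2 fell (median 0.21). Tgfbr1, a TGF-beta receptor, and Tgfb1, its ligand, had 1.84 and 0.96 (adjusted p = 0.0091 and 0.00466). The TGF-beta response and myofibroblast list as a whole had 2 of 29 higher, these 2 genes, and 4 lower (median -0.28). The MHC class II and costimulation list had 4 of 15 higher (median 0.49), none of them a classical chain: Cd86 at 1.98 and Cd80 and Cd40 supply costimulation, and RT1-DOb modulates peptide loading. In that list 1 to 3 genes rose with 1 library left out, 1 without the 3 libraries that stood apart, and 1 to 3 under the scalings tried. Cd40 passed in 4 of 12 fits (adjusted p = 0.0405; 0.0978 when GelMA 4W replicate 1 was left out). In the cell cycle list 5 of 29 rose (median 0.49), among them Kif20a, a mitotic kinesin, at 1.11 and Nusap1, a spindle protein, at 0.96 (adjusted p = 0.0065 and 0.0185; the second in 11 of 12 fits). Between 1 and 8 rose with 1 library left out.

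**Figure D4:**
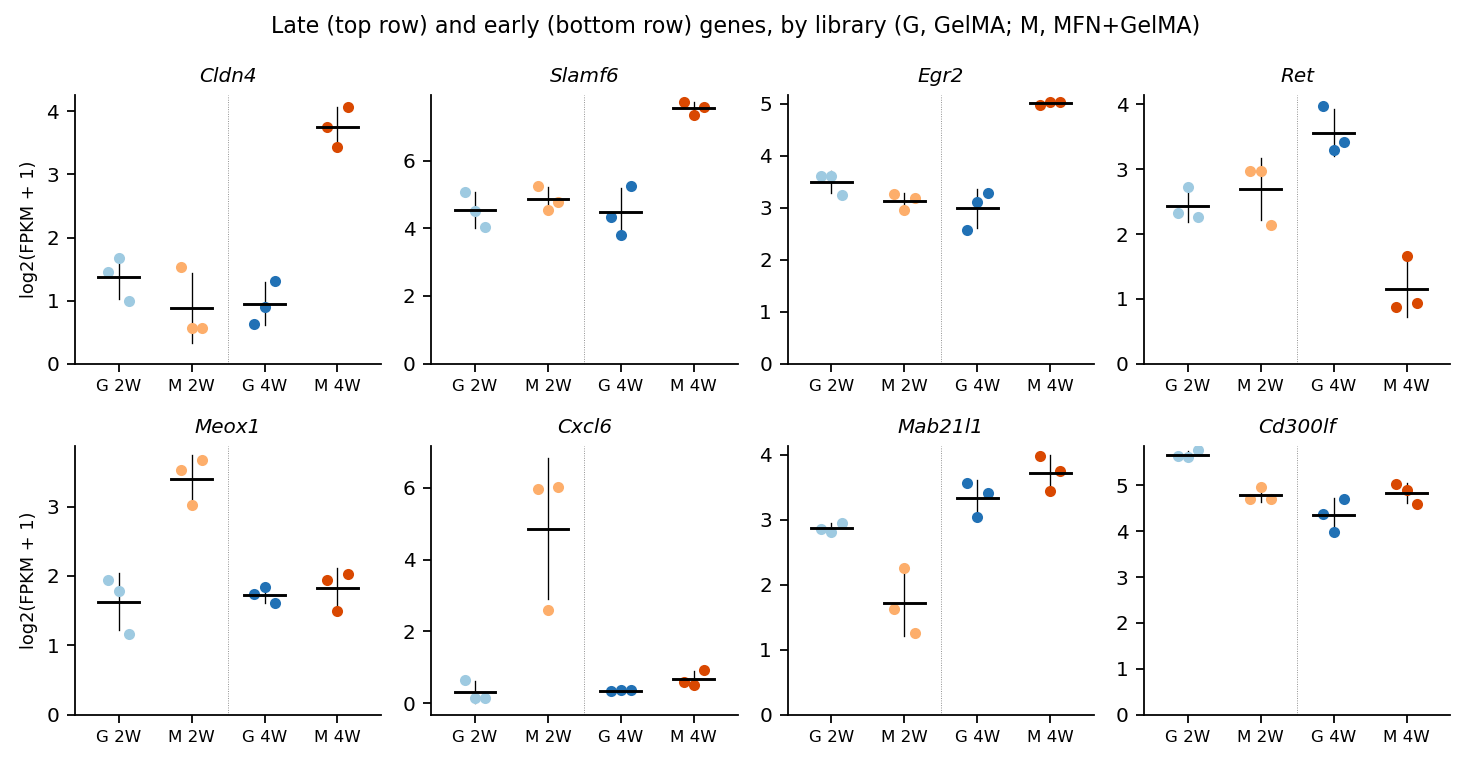
Level of 4 late genes (top row) and 4 early genes (bottom row) in each library on the log2(FPKM + 1) scale (points), with the group mean (bar) and its SD (line, n = 3), for GelMA (G) and MFN+GelMA (M). In the top row the materials part at 4 weeks; in the bottom row they part at 2 weeks and lie within 0.5 of each other in the mean at 4 weeks.

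Late genes with a lower interaction included Pdpn and Ret. Pdpn, podoplanin of lymphatic endothelium and fibroblasts (rn6 chromosome 5, 161947136 to 161981441), stood at 66.4, 57.5 and 58.8 FPKM in GelMA 2W and at 82.3, 42.4 and 109 FPKM in MFN+GelMA 2W. At 4 weeks Pdpn stood at 123, 56.4 and 79.9 FPKM in GelMA 4W and at 19.6, 27.1 and 19.6 FPKM in MFN+GelMA 4W (interaction -2.12, SE 0.46, adjusted p = 0.0138). Ret, the receptor kinase for GDNF family ligands, stood at 4.02, 5.59 and 3.82 FPKM in GelMA 2W and at 6.86, 6.81 and 3.41 FPKM in MFN+GelMA 2W. At 4 weeks Ret stood at 14.8, 8.86 and 9.66 FPKM in GelMA 4W and at 0.823, 2.15 and 0.909 FPKM in MFN+GelMA 4W; over time the MFN+GelMA libraries fell by 1.54 (adjusted p = 0.004), and the change of 1.13 in GelMA did not pass (adjusted p = 0.071; interaction -2.67, SE 0.41, adjusted p = 0.0044). The largest negative value among the named late genes was that of Art3, an ADP-ribosyltransferase family gene in a locus shared with another row, at -2.76 (adjusted p = 0.0101). Aif1l and Sectm1b had -2.09 and -2.05 (adjusted p = 0.0054 and 0.00715). Cav1, the caveolin that shapes membrane pits, had -2.05 (adjusted p = 0.0468) and passed in 4 of 12 fits, up to 0.11 without MFN+GelMA 4W replicate 1. With Cav1, 8 of 314 annotated genes of this class (2.55%) belong to the caveola, beside 1.27% of the late genes with a higher interaction and 0.601% of all annotated genes, a term picked after the values were seen. The share was not particular to this class. It was 2.04% and 1.41% in reversed genes with a lower and a higher interaction. In early genes it was 2.86% and 3.03%, and in same-direction genes 2.22% and 0%, from at most 1 gene each.

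The progenitor fibroblast list had 11 of 26 genes lower and 2 higher (median -1.24), from 6 (without GelMA 4W replicate 1) to 10 lower with 1 library left out. Ackr3, a scavenger receptor for the chemokine Cxcl12, stood at 75.9, 78.7 and 93.2 FPKM in GelMA 2W and at 56.4, 69.4 and 72.6 FPKM in MFN+GelMA 2W. At 4 weeks Ackr3 stood at 157, 109 and 119 FPKM in GelMA 4W and at 31.4, 29.7 and 34.9 FPKM in MFN+GelMA 4W (interaction -1.64, SE 0.21, adjusted p = 0.00277). Sfrp2, a secreted Wnt modulator, had effects of -0.66 and -2.11, already lower at 2 weeks in every library (interaction -1.45, adjusted p = 0.00292). The 2 members that rose were Pi16, a peptidase inhibitor gene that marks such fibroblasts, and Sema3c, a guidance ligand. From 0 to 2 members rose with 1 library left out, 0 to 1 under the scalings tried, and none without the 3 libraries that stood apart. Pi16 was lower with MFN at both weeks but less so at 4 weeks (-1.73 and -0.67), and Sema3c went from -0.70 to 0.31.

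Matrix genes were mostly lower among those called. Of 36 matrix glycoprotein, proteoglycan and elastic fibre genes 10 fell and 1 rose (median -0.48). Ltbp1, which stores latent TGF-beta in matrix, stood at 29.8, 39.9 and 32.1 FPKM in GelMA 2W and at 19.7, 20.5 and 19.97 FPKM in MFN+GelMA 2W. At 4 weeks Ltbp1 stood at 55.2, 40.4 and 38.4 FPKM in GelMA 4W and at 6.99, 9.06 and 7.9 FPKM in MFN+GelMA 4W, lower with MFN in every library of both weeks and more so at 4 weeks (interaction -1.61, SE 0.22, adjusted p = 0.00321). Mfap2, a microfibril protein, had -2.10 (adjusted p = 0.00516). The member that rose was Acan, the cartilage proteoglycan aggrecan, at 1.45 (adjusted p = 0.0232), from under 0.3 FPKM in the other groups to 1.39, 3.46 and 1.34 FPKM in MFN+GelMA 4W, in 8 of 12 fits. It too passed the filter through that group alone.

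Collagen genes went both ways, 2 of 21 higher and 2 lower (median -0.12, which was 0.01 when GelMA 4W replicate 2 was left out and 0.08 when MFN+GelMA 4W replicate 1 was). Col11a1, a fibrillar collagen of cartilage, had 2.90 (adjusted p = 0.0329) and passed in 4 of 12 fits, up to 0.0804 without MFN+GelMA 4W replicate 1. Col6a6, a collagen VI chain, fell by 1.59 (adjusted p = 0.00917). Col1a1 and Col3a1 could not be compared as they stand. Col1a1 was listed at 0 in GelMA 4W replicate 1, beside 3449 to 8848 FPKM in the other 11 libraries, and Col3a1 in 3 GelMA libraries, beside 6304 to 13992 FPKM in the rest, and a 0 beside such levels may be an estimate that failed. With such values taken as missing the interaction of Col1a1 was -1.08 (limma, adjusted p = 0.0495). Leaving out GelMA 4W replicate 1 as a whole also gave -1.08, but with an adjusted p of 0.0683. The interaction of Col3a1 was -0.60 with such values missing. Only replicate 2 of GelMA 4W, the library rich in Adipoq, then held a value of Col3a1 in its group.

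Genes with the same direction at both weeks mostly had a larger effect at 4 weeks than at 2 weeks. Of these 88 genes 12 passed at 2 weeks on their own, and all 88 passed at 4 weeks. Sfrp5, a secreted Wnt antagonist, stood at 1.62, 3.43 and 1.22 FPKM in GelMA 2W and at 7.93, 2.21 and 3.24 FPKM in MFN+GelMA 2W. At 4 weeks Sfrp5 stood at 3.93, 2.35 and 6.3 FPKM in GelMA 4W and at 65.3, 53.03 and 60.7 FPKM in MFN+GelMA 4W (interaction 2.87, SE 0.55, adjusted p = 0.00867). Its groups overlapped at 2 weeks. Apcdd1, a membrane-bound Wnt inhibitor, stood at 16.00, 16.4 and 8.87 FPKM in GelMA 2W and at 9.22, 8.08 and 5.63 FPKM in MFN+GelMA 2W. At 4 weeks Apcdd1 stood at 43.7, 76.3 and 28.04 FPKM in GelMA 4W and at 2.9, 5.98 and 4.27 FPKM in MFN+GelMA 4W (interaction -2.40, SE 0.50, adjusted p = 0.0112). The patterning and secreted Wnt antagonist list had 1 of 24 higher (Sfrp5) and 5 lower (median -0.67). The number lower ran from 1 without GelMA 4W replicate 1 to 8 without GelMA 4W replicate 2. Mmp27, a matrix metalloproteinase, had -2.32 (adjusted p = 0.00598), and Il1rn, the interleukin-1 receptor antagonist, 2.41 (adjusted p = 0.0164). Il1r2, the decoy receptor for interleukin-1, went the other way at -1.95 (adjusted p = 0.0114). Hspb7, a small heat shock protein of heart and muscle, had 2.53 (adjusted p = 0.0091), the 1 called of 3 tested members of the embryonic muscle list (median 0.47). Tnnt2, the cardiac form of troponin T, was higher at both weeks by similar amounts (1.85 and 2.32; interaction 0.47, SE 0.32, adjusted p = 0.36).

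Among the 61 genes that passed at 2 weeks, 42 also passed in the same direction at 4 weeks (10 higher and 32 lower) and 3 in the opposite direction. The remaining 16 did not pass at 4 weeks. In 27 of the 61 the interaction passed as well.

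Early genes were few, and 13 of the 74 passed at 2 weeks on their own while 58 passed at neither week. Cxcl6, a chemokine that draws neutrophils (ENSRNOG00000002843; rn6 chromosome 14, 18860263 to 18862407), stood at 0.582, 0.107 and 0.106 FPKM in GelMA 2W and at 61.02, 5.07 and 64.05 FPKM in MFN+GelMA 2W. At 4 weeks Cxcl6 stood at 0.265, 0.29 and 0.285 FPKM in GelMA 4W and at 0.524, 0.42 and 0.891 FPKM in MFN+GelMA 4W. Of the 12 libraries the 3 of MFN+GelMA 2W were the only ones above 1 FPKM (interaction -4.22, SE 0.98, adjusted p = 0.0178). Cxcl6 passed the filter through that group alone, so it had to differ, and was not tested when any of its libraries was left out. It passed in 9 of 12 fits, and was not tested without the 3 libraries that stood apart. Meox1, a homeobox factor of mesenchyme (rn6 chromosome 10, 89797037 to 89816491), stood at 2.85, 2.45 and 1.24 FPKM in GelMA 2W and at 10.5, 7.12 and 11.7 FPKM in MFN+GelMA 2W. At 4 weeks Meox1 stood at 2.33, 2.6 and 2.06 FPKM in GelMA 4W and at 2.85, 1.82 and 3.08 FPKM in MFN+GelMA 4W, with no separation left (effects 1.77 and 0.09; interaction -1.68, SE 0.34, adjusted p = 0.0103).

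Selm, selenoprotein M, and Gadd45g, a growth arrest gene, had interactions of -1.25 and -1.21 (adjusted p = 0.0073 and 0.0147) after 2-week effects of 0.78 and 0.89. Dnm3, a dynamin in a shared locus, had -1.18 (adjusted p = 0.0221, in 9 of 12 fits). By the deposited annotation 6 of 27 annotated genes (22.2%) belong to proteolysis, beside 2.24% of all annotated genes, a term picked after the values were seen. They were Adamts4, Adamts10, Adamts14, Adamts15, Enpep and Plat. Adamts4, an aggrecan-cleaving protease, stood at 1.13, 0.913 and 0.842 FPKM in GelMA 2W and at 4.18, 3.23 and 7.36 FPKM in MFN+GelMA 2W. At 4 weeks Adamts4 stood at 0.803, 1.38 and 0.519 FPKM in GelMA 4W and at 0.435, 1.05 and 0.985 FPKM in MFN+GelMA 4W, within overlapping groups (interaction -1.59, SE 0.38, adjusted p = 0.0196). The matrix protease and inhibitor list had 10 of 32 lower and 3 higher (median -0.61), and of these 4 were early and 7 late. From 5 (without GelMA 4W replicate 1) to 10 were lower with 1 library left out. Mmp23 was a late member at -1.28 (adjusted p = 0.0063). Among the 3 that rose, Serpine2, an inhibitor of thrombin and plasminogen activators, had 2.54, with A2m given above.

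In the opposite direction, early genes were lower with MFN by more than 0.5 at 2 weeks only. Mab21l1, a developmental gene, stood at 6.22, 6.01 and 6.75 FPKM in GelMA 2W and at 2.11, 3.77 and 1.4 FPKM in MFN+GelMA 2W. At 4 weeks Mab21l1 stood at 10.9, 7.21 and 9.61 FPKM in GelMA 4W and at 14.8, 9.9 and 12.4 FPKM in MFN+GelMA 4W (interaction 1.54, SE 0.34, adjusted p = 0.0138). Cd300lf, an inhibitory receptor of myeloid cells, stood at 48.4, 47.8 and 53.3 FPKM in GelMA 2W and at 24.97, 30.1 and 24.9 FPKM in MFN+GelMA 2W. At 4 weeks Cd300lf stood at 19.8, 14.9 and 25.2 FPKM in GelMA 4W and at 31.4, 28.8 and 23.2 FPKM in MFN+GelMA 4W; the effects were -0.88 at 2 weeks and 0.48 at 4 weeks, and neither passed alone (adjusted p = 0.0558 and 0.0647; interaction 1.36, SE 0.24, adjusted p = 0.00715). Tnfsf13b, the B cell survival factor BAFF, and Cd5l, a protein secreted by macrophages, had 1.41 and 1.39 (adjusted p = 0.0379 and 0.0414), each in 4 of 12 fits, up to 0.0945 and 0.0994, and both lie in loci shared with other rows.

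Antiviral genes were part of this set. Oas3 and Oasl, interferon-induced synthetase family genes, had 1.38 and 1.35 (adjusted p = 0.0128 and 0.0256; Oasl in 5 of 12 fits, up to 0.0681 without GelMA 4W replicate 1). Oas3 stood at 5.89, 5.3 and 4.46 FPKM in GelMA 2W and at 1.42, 2.98 and 2.37 FPKM in MFN+GelMA 2W. At 4 weeks Oas3 stood at 0.444, 0.584 and 0.43 FPKM in GelMA 4W and at 1.24, 0.634 and 1.15 FPKM in MFN+GelMA 4W. Oas3 was not on the interferon list. Of its 24 tested genes Oasl alone passed, with a median effect of -0.83 at 2 weeks, -0.42 at 4 weeks and an interaction of 0.25, which was -0.03 without GelMA 2W replicate 2. With 1 library left out, 0 to 2 of the 24 rose. Without the 3 libraries that stood apart, 14 of the 24 rose with a median of 1.20. The library rich in Adipoq, GelMA 4W replicate 2, also had the highest Irf7, a master factor of the interferon response, of its group, at 108 FPKM against 26.3 and 19.2 FPKM. Irf7 was named after its values were seen.

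The fat and muscle lists also changed with the libraries included. Of 22 white adipocyte genes none passed in limma and 4 had an unadjusted p under 0.05 (median -0.79), and the median was 0.83 without GelMA 4W replicate 2 and 1.65 with 12 genes higher without all 3 libraries. Lpl, lipoprotein lipase of fat and macrophages, had 2.00 (adjusted p = 0.0669, and 0.00668 without the 3), and Sncg, a synuclein of fat and nerve, -2.89 (adjusted p = 0.157). Adipoq had -0.25 (adjusted p = 0.955). Of 6 skeletal muscle fibre genes only Pvalb passed (median -1.09, and 0.17 without the 3 libraries), and Tnnt3, a fast fibre troponin, had -1.07 (adjusted p = 0.417).

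Other immune lists had few called genes. Of 17 resident-like macrophage genes 2 fell and none rose (median -0.28, which was 0.04 without MFN+GelMA 2W replicate 3). Cd163, the haemoglobin scavenger receptor, was a reversed gene and stood at 50.5, 70.5 and 68.6 FPKM in GelMA 2W and at 80.1, 60.6 and 154 FPKM in MFN+GelMA 2W. At 4 weeks Cd163 stood at 29.7, 40.6 and 26.8 FPKM in GelMA 4W and at 8.36, 9.79 and 12.4 FPKM in MFN+GelMA 4W, lowest with MFN (interaction -2.10, SE 0.42, adjusted p = 0.00943). Its interaction was opposite in sign to those of the called pan-macrophage genes. Klf4, a transcription factor, was the other member that fell, at -1.03 (adjusted p = 0.0153). Of 7 tested neutrophil genes Lcn2 and Il1r2 fell (median -1.12). Of 23 cytokine and chemokine genes 2 rose (Il1rn and Ccl3) and 2 fell (Cxcl6 and Cxcl12), with a median of -0.78. Cxcl6 passed the filter through MFN+GelMA 2W alone.

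Of 18 T cell genes Cd4 alone passed (median 0.01, which changed sign under upper quartile scaling, mitochondrial removal and the count-like signal). That median ran from -0.23 to 0.12 with 1 library left out. Foxp3, the factor of regulatory T cells, stood at 0.447, 0.359 and 0.0891 FPKM in GelMA 2W and at 1.57, 1.59 and 1.22 FPKM in MFN+GelMA 2W with an interaction of -0.76 (adjusted p = 0.101); it reached 1 FPKM in MFN+GelMA 2W alone. None of 9 mast cell genes passed in limma, with 0 at an unadjusted p under 0.05 (median -0.88; Cma1, a chymase, -2.28, adjusted p = 0.229; Fcer1a, the IgE receptor chain, -1.44, adjusted p = 0.228). Nor did any of 3 B and plasma cell genes, with 0 at an unadjusted p under 0.05 (median -0.20; Jchain, the antibody joining chain, -0.90, adjusted p = 0.349; Cd22, a B cell receptor inhibitor, -0.20, adjusted p = 0.734). These misses do not show equal effects at both weeks.

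The Schwann cell and nerve list had 4 of 14 higher and 2 lower (median 0.76), and it was divided within the Cadm family of adhesion molecules. Cadm1 reversed as given above, Cadm4 rose from 1.02 to 3.45, and Cadm3 fell from -1.15 to -2.47. Cadm3 stood at 91.4, 118 and 112 FPKM in GelMA 2W and at 47.6, 48.6 and 46.4 FPKM in MFN+GelMA 2W. At 4 weeks Cadm3 stood at 173, 109.9 and 109 FPKM in GelMA 4W and at 17.2, 25.4 and 24.6 FPKM in MFN+GelMA 4W (interaction -1.32, SE 0.27, adjusted p = 0.0108). Egr2 and Pmp22 rose and Erbb3, a neuregulin receptor of Schwann cells, fell (0.71 and -0.66).

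In the red blood cell and iron recycling list 2 of 12 rose (Hmox1, which breaks down haem, and Slc11a1, an iron transporter of phagosomes, at 1.41, adjusted p = 0.0093) and Cd163 fell (median -0.37, and 0.05 without GelMA 4W replicate 2). The metallothionein and oxidative stress list had 3 of 18 higher and 2 lower (median 0.08), with Slc30a1, a zinc exporter, at 1.13 and Gpx3, a secreted glutathione peroxidase, at -1.13 (adjusted p = 0.00946 and 0.012). The list median ran from -0.06 to 0.30 with 1 library left out. In the unfolded protein and integrated stress list 2 of 24 rose, Sdf2l1 at 1.07 and the chaperone gene Canx at 0.55 (adjusted p = 0.0244 and 0.0204; in 9 and 10 of 12 fits; median 0.02). Its median ran from -0.08 to 0.11 with 1 library left out. The cholesterol and fatty acid synthesis list had 1 of 25 lower, Idi1, at -0.81 (adjusted p = 0.0373, in 3 of 12 fits, up to 0.085 without MFN+GelMA 4W replicate 3; list median -0.35), and Mvk, another enzyme of the pathway, had -0.90 (adjusted p = 0.0767). Of 6 cartilage and bone genes Acan and Alpl rose and Bmp7 fell (median -0.34). Acan passed the filter through MFN+GelMA 4W alone, so it had to differ. With 1 library left out 0 to 2 of the list rose and 0 to 1 fell. Without the 3 libraries that stood apart 0 rose and 0 fell. Bmp7, a bone morphogenetic protein, had -1.41 (adjusted p = 0.0297), in 4 of 12 fits. The keratinocyte list had 2 of 4 higher (median 1.57), and of the remaining list genes Usp18, an interferon-induced protease, had 0.97 (adjusted p = 0.113), and 1.67 without the 3 libraries (adjusted p = 0.00673).

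**Figure D5:**
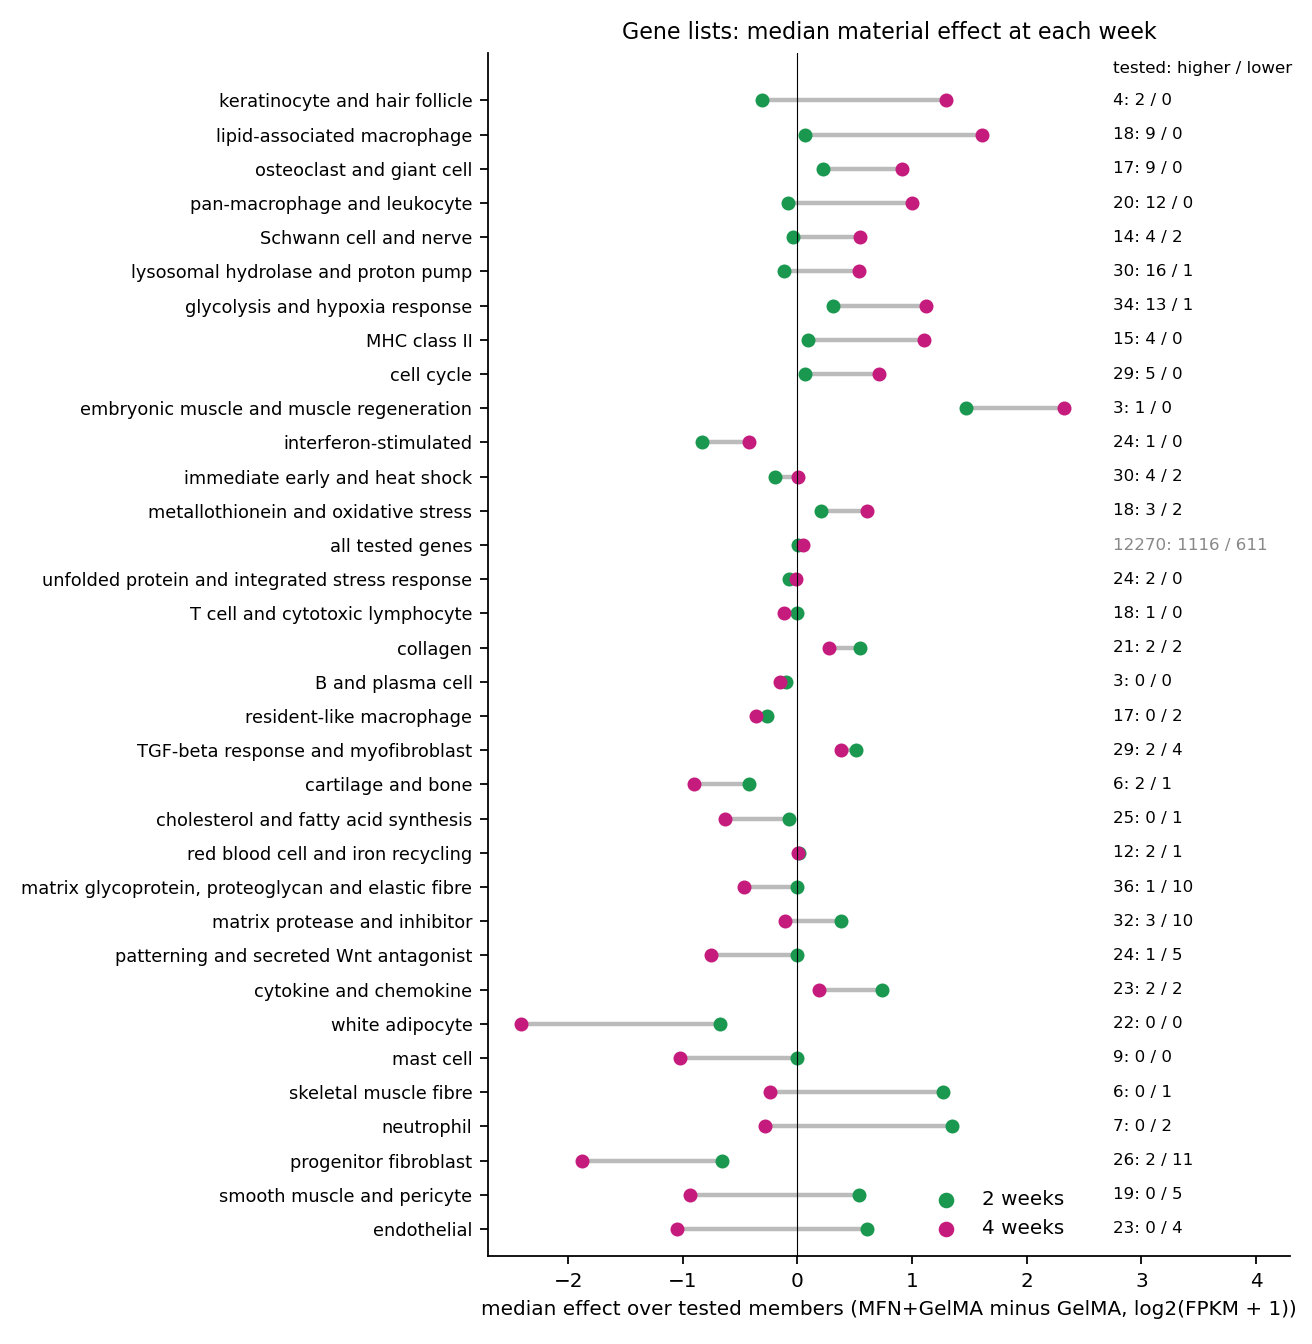
Median material effect of each gene list at 2 weeks (green) and 4 weeks (magenta) on the log2(FPKM + 1) scale, ordered by the median interaction; the figures at the right give the tested members and how many were called higher and lower in the interaction. The lipid-associated and pan-macrophage, lysosome and glycolysis lists lie near 0 or just above it at 2 weeks and above it at 4 weeks, the resident-like macrophage list lies below 0 at both, the vessel lists cross from above to below 0, and all tested genes lie near 0 at both weeks. The place of the vessel lists above 0 at 2 weeks rests largely on GelMA 2W replicate 3.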

How the data were processed

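Libraries of rat tissue, 3 for each of 4 groups, were sequenced for RNA after removal of ribosomal RNA with a strand-marking kit, per the labels' protocols. Per the submitters' processing notes, cutadapt 1.9.3, HISAT2 and Cuffdiff were used with the rn6 build; the notes give no order. The authors deposited FPKM for each gene and library, and beside it a count-like signal whose values are not whole numbers. No count model was therefore used, and the deposited signal served for library totals and 1 alternative. In each library 98.7% to 99.5% of its values lay near whole multiples of a step, which ran from 0.875 to 1.08 by library. Its totals of 11174499 to 13025655 therefore depend on the step and do not measure depth. Fragments estimated with the step ran from 11405095 to 14043227 per library. FPKM gives no counting interval.

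From these files, the 22062 rows were summed by symbol to 21797 genes, of which 12270 with at least 1 FPKM in 3 libraries were tested. FPKM was transformed to log2(FPKM + 1), which understates changes of low genes. limma 3.58.1 (R 4.3.3) fitted a mean for each group over all 12 libraries with an intensity trend (8 residual and 3.28 prior degrees of freedom), and two-sided p-values were adjusted by Benjamini-Hochberg over all tested genes. The fit was tested on simulated data. Of the rows 2559 carry the same locus as another row, and genes that overlap only in part were not looked for. Whether counting used strand is not given in the sources used here.

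Genes were named by rule among those called with a mean of at least 2 FPKM: the 8 reversed, 6 late and 6 early genes with the largest interaction in each direction, 3 with the same direction, 2 of each of the 33 lists by the smallest p, and 6 check genes. Of 792 list symbols 33 were not matched. The classes, members and lists were chosen with earlier results of these data known, so list counts carry no test of their own. Alternatives covered the pseudocount, filter, scaling, variance model, listed zeros, replicate block, thresholds and left-out libraries.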

Additional observations from a re-analysis of the deposited data

Results flagged for a closer look

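Each result here was taken up because the material effect differed between the weeks by the test of the interaction itself (limma, adjusted p under 0.05 over all tested genes). Values are interactions on the log2(FPKM + 1) scale, 4 weeks minus 2 weeks. The genes were chosen among those called, so their number is no evidence.

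The higher reversed genes named were Stra13 at 4.45, Cst6 at 3.45, Fcgr3a at 3.30, Faim at 3.28, Pxt1 at 3.27, Cadm1 at 2.56 and Serpinb8 at 2.54. Mcoln3 stood at 2.50, Cd200r1 at 1.38 and Cd4 at 1.14. The lower reversed genes named were Pvalb at -4.96, Lcn2 at -4.87, Cfb at -3.12, Mme at -2.87, Prnd at -2.77, Gpihbp1 at -2.67 and Adgrv1 at -2.57. Adgrg1 stood at -2.55, Cd163 at -2.10, Nos3 at -2.33 and Angpt2 at -2.28. The higher late genes named were Cldn4 at 3.29, A2m at 3.24, Tmem26 at 2.80, Slamf6 at 2.76, Slc6a12 at 2.71, Sh2d1b at 2.61 and Lipa at 2.09. Plin2 stood at 1.98, Lcp1 at 1.69, Ctss at 1.15, Cd86 at 1.98, Cd40 at 0.81, Atp6v1d at 1.18 and Npc1 at 1.16. Pfkp stood at 1.15, Kif20a at 1.11, Nusap1 at 0.96, Tgfb1 at 0.96, Tgfbr1 at 1.84, Egr2 at 2.37 and Slc11a1 at 1.41. Atf3 stood at 2.26, Sdf2l1 at 1.07, Slc30a1 at 1.13 and Acan at 1.45. The lower late genes named were Art3 at -2.76, Ret at -2.67, Pdpn at -2.12, Aif1l at -2.09, Cav1 at -2.05, Sectm1b at -2.05 and Idi1 at -0.81. Mmp23 stood at -1.28, Ackr3 at -1.64, Kcnj8 at -1.84, Abcc9 at -1.50 and Gpx3 at -1.13. The higher early genes named were Mab21l1 at 1.54, Tnfsf13b at 1.41, Cd5l at 1.39, Oas3 at 1.38, Cd300lf at 1.36 and Oasl at 1.35. The lower early genes named were Cxcl6 at -4.22, Meox1 at -1.68, Selm at -1.25, Glt8d2 at -1.24, Gadd45g at -1.21 and Dnm3 at -1.18. The higher genes with the same direction at both weeks named were Spp1 at 2.94, Col11a1 at 2.90, Sfrp5 at 2.87, Ocstamp at 2.55, Il1rn at 2.41, Eno1 at 1.14 and Hspb7 at 2.53. The lower genes with the same direction at both weeks named were Apcdd1 at -2.40, Mmp27 at -2.32, Mfap2 at -2.10, Klf4 at -1.03, Il1r2 at -1.95, Col6a6 at -1.59 and Ltbp1 at -1.61. Sfrp2 stood at -1.45 and Bmp7 at -1.41. Canx, with no effect past 0.5 at either week, stood at 0.55.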

How the results depend on the processing

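With 1 library left out at a time the called interaction genes numbered 920 to 1607, the higher ones 631 to 1062, the lower ones 289 to 594, reversed genes 107 to 272, late genes 652 to 1151, early genes 39 to 110, same-direction genes 47 to 97, 2-week calls 21 to 160 and 4-week calls 2004 to 3317. The lowest values came without GelMA 4W replicate 1, except 39 early genes without MFN+GelMA 4W replicate 1 and 21 2-week calls without MFN+GelMA 2W replicate 1. Without the 3 libraries that stood apart, early genes numbered 184 and 2-week calls 374. At an adjusted p of 0.1 the called genes numbered 2605, the lower ones 1050, early genes 144 and 2-week calls 249. A class limit of 1 gave 15 reversed, 675 late, 28 early and 16 same-direction genes, and a pseudocount of 2 gave 125 reversed genes. Array weights gave 121 early genes and 95 2-week calls, and the count-like signal scaled to library totals, chosen after seeing the data, 93 2-week calls. The cause of these shifts was not tested.

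Deviations of same-numbered libraries of a week correlated at -0.04 to 0.08, and those of differently numbered ones at -0.07 to 0.07. With 3 libraries in each group, these values cannot show whether replicate numbers pair the samples. With the replicate number as a block 1179 genes were called, 740 of them higher, with 46 early genes and 6 2-week calls. The planned count model (edgeR) was not run because the deposited count-like values are not whole numbers.

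The interaction of Adipoq, which did not pass, turned positive with array weights (2.32), without GelMA 2W replicate 3 (0.94), MFN+GelMA 2W replicates 2 and 3 (0.21 and 0.06), GelMA 4W replicate 2 (1.88) and MFN+GelMA 4W replicate 1 (0.40), and with all 3 libraries left out (3.54), over a left-out range of -1.52 to 1.88. That of Cd22 turned positive with array weights (0.065), without the 3 libraries (0.012) and when MFN+GelMA 2W replicate 3 was left out (0.036), with a range of -0.486 to 0.036 over left-out libraries. Col1a1 turned to -1.08 with listed zeros missing or without GelMA 4W replicate 1 (left-out range -1.08 to 5.47). Col3a1 turned to -0.60 with listed zeros missing, which left replicate 2 as its only value of GelMA 4W. The median interaction over all genes stayed between -0.04 and 0.03 under the scalings tried.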
